A study of Mus musculus with 30 samples.

Results

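The wild-type mammary gland was profiled on 7 of the 30 arrays of the series, chosen by their title (WT), with 1 gland sample on each. Every array paired the RNA of an inguinal mammary gland, labelled with Cy5, with a universal mouse reference RNA from Stratagene, labelled with Cy3. All groups were on a 129sv background and 19 weeks old. The WT labels name no allele, transgene or treatment, and the other groups are IFNAR1-/- (8 arrays), which lacks a chain of the type I interferon receptor, Her2/Neu+ (6 arrays), which carries an ERBB family oncogene, and the combination of both, Her2/Neu+/IFNAR1-/- (9 arrays). The promoter that drives the oncogene, the stage of the oestrous cycle and whether the inguinal lymph node was taken out are not given in the labels. The arrays are called by the sample numbers in the labels, WT 53 to WT 60. Nothing in the labels says that each sample came from a separate mouse, so the p-values measure only the spread between these 7 samples.

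Each value is the log2 ratio of gland over reference, so 0 is the level of the reference, 1 is a level 2-fold above it and negative values lie below it. The deposited values stop at 6 in size, which is 64-fold. A gene at 6 therefore has only a bound, and a mean that includes such values is too small. Base 2 for the logarithm rests on this limit and the direction on the dyes. The labels name no dye swap, so tissue and dye cannot be told apart in any of these values. The question the comparison answers is which genes and tissue programmes mark the normal gland against a mixture of other RNAs.

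The adult mouse mammary gland is a fat pad through which branched ducts run. The ducts have an inner layer of luminal cells, some of which carry hormone receptors, and an outer layer of basal, contractile cells. Adipocytes, fibroblasts, vessels, nerves and immune cells surround them, and the inguinal fat pad also holds a lymph node. The reference is a pool of RNA from mouse cell lines, that is, from cells dividing in culture. In whole tissue, fewer cells of a type and less RNA per cell cannot be told apart.

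Of 11992 genes tested, 5526 (46.1%) differed from the reference with limma at a Benjamini-Hochberg adjusted p under 0.05. A higher level in the gland was found for 2908 genes (24.2%) and a lower level for 2618 (21.8%). Against a minimum difference of 2-fold, 955 genes (7.96%) passed as higher and 517 (4.31%) as lower. Of the 5526 genes, 4486 (81.2%) had the same sign on all arrays that measured them. The arrays held between 19213 and 20676 values each and correlated with one another at r between 0.673 and 0.858 over probes. WT 60 stood most apart, with the lowest array weight (0.406). The values come without intensities, which leaves the signal above background unknown, and 7 arrays set the precision. Between 3865 and 8204 values per array shared all their digits with another value of that array. They are called repeated values here, and how they arose is not stated in the sources used here. Many lie near 0.

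The 40 gene lists spread over most of the scale. The median of the members' means ran from 6 for brown and beige adipocyte genes and 5.69 for white adipocyte genes down to -2.07 for DNA replication and -3.13 for mitosis, beside a median of -0.00 over all genes. The list counts below are read against the 24.2% of all genes that passed as higher and the 21.8% that passed as lower. Where no member of a list passed in a direction, none had an unadjusted p under 0.05 in that direction either (limma).

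**Figure D1:**
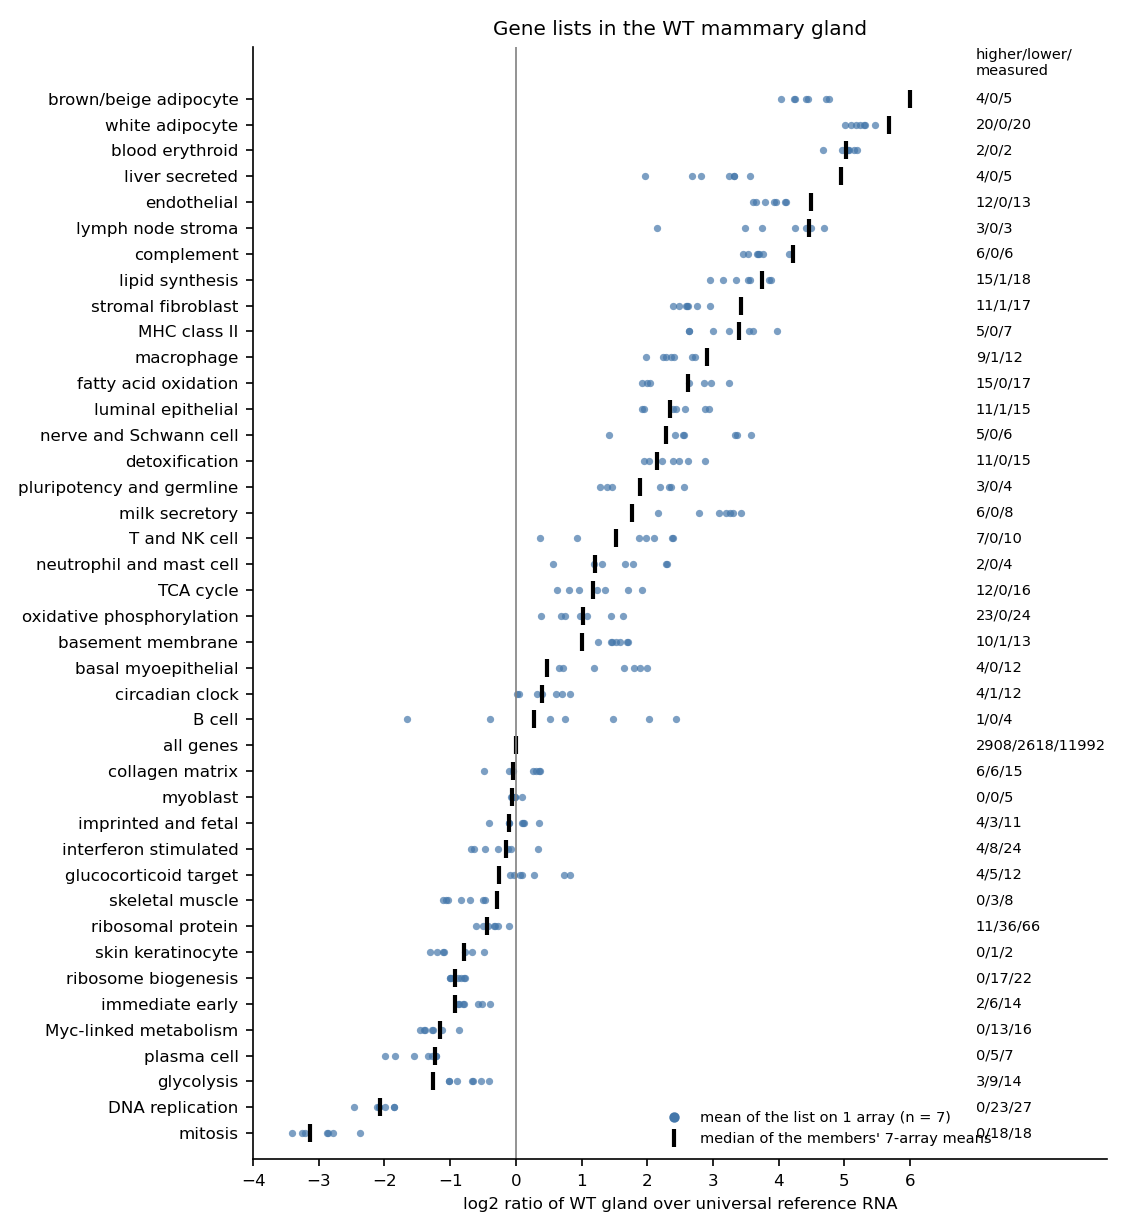
Each row is a gene list and the x axis is the log2 ratio of WT gland over universal reference RNA. Blue points are the mean of the measured members on each of the 7 arrays, black ticks the median of the members' means, and the figures at the right count members higher, lower and measured; all genes are included as a row. Brown and beige adipocyte genes (4 of 5 higher) stand at the top, followed by white adipocyte genes (20 of 20 higher). Mitosis genes (18 of 18 lower) stand at the bottom.

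The labelled tissue was checked against defining markers. Adipocyte markers were the clearest: Adipoq, Plin1 and Fabp4 were at the limit of 6 on all 7 arrays. Luminal and basal markers were present but uneven, as described further on. Genes of fast skeletal muscle, which lies next to the gland, did not pass as above the reference: of 8 measured members none passed as higher and 3 passed as lower, with a list median of -0.28. The list holds 18 genes, and 6 of the 8 measured had repeated values on 4 or more arrays. Tnnt3, fast troponin T, lay between -0.08 and -0.01 on all 7 arrays, with repeated values on each. Acta1, skeletal actin, ranged from -3.27 through a median of -1.05 to -0.31. Its mean was -1.33 ± 1.03 (SD, n = 7; adjusted p = 0.0168), which no longer passed in the fit over all 30 arrays (adjusted p = 0.114). Eno3, the muscle enolase, was -2.26 ± 0.69 (n = 7; adjusted p = 0.000176). For skin, 2 of 9 listed genes were measured. Sbsn, suprabasin of keratinised epidermis, was -1.44 ± 0.62 (n = 7; adjusted p = 0.0011) and Krt10 did not pass (mean -0.15, n = 5).

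**Figure D2:**
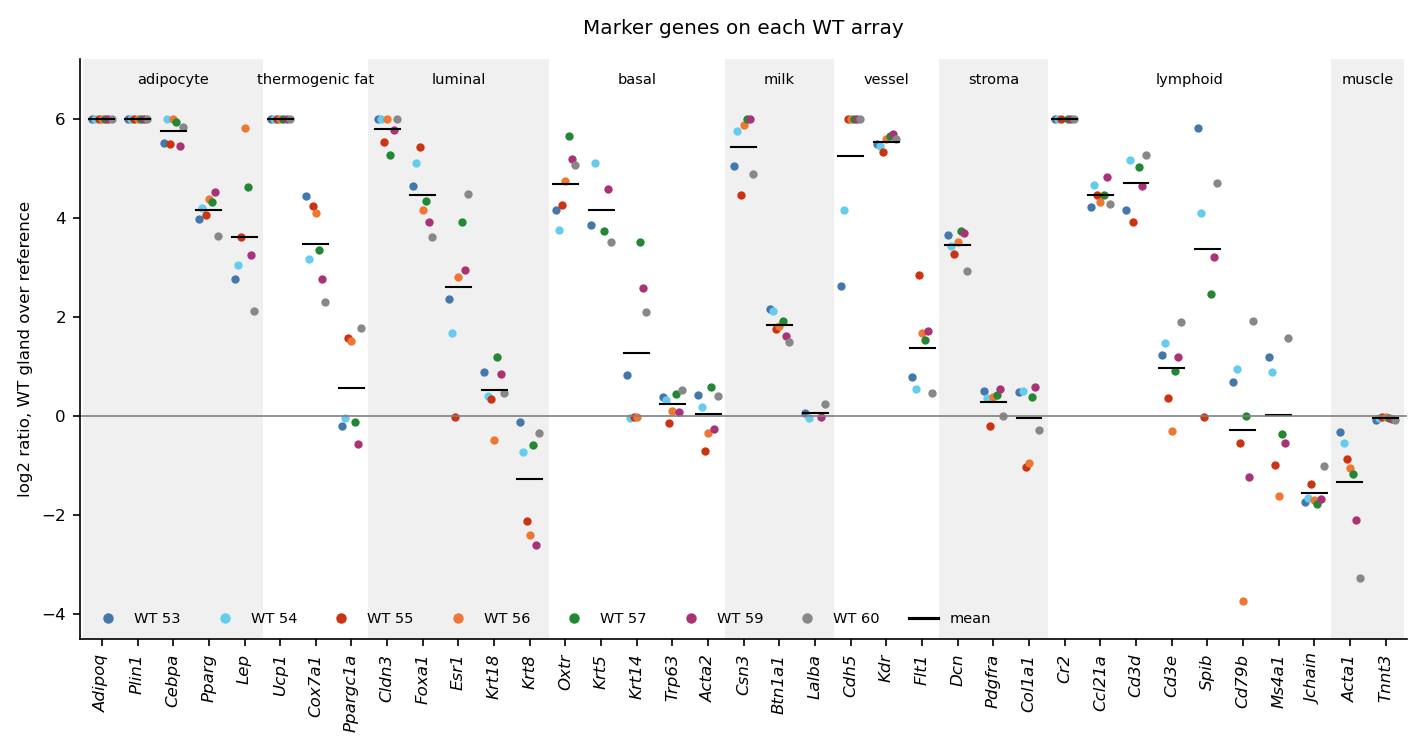
The y axis is the log2 ratio of WT gland over reference for marker genes of the cell types named along the top, with 1 point per array coloured by sample and a black line at the mean. Adipoq, Plin1 and Ucp1 lie at the limit of 6 on all 7 arrays, while Krt8 and Jchain lie below 0 on all 7 and Lep, Krt14 and Cd79b spread widely.

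The fat pad gave the strongest signature. All 20 measured members of the 24 white adipocyte genes were higher in the gland, 19 of them also against a minimum of 2-fold, and the list mean lay between 5.01 and 5.46 on the 7 arrays. Besides the hormone adiponectin (Adipoq), the droplet coat protein perilipin 1 (Plin1) and the fatty acid carrier Fabp4, the droplet protein Plin4, the monoacylglycerol lipase Mgll and the activin receptor Acvr1c were at 6 on every array, which means at least 64-fold above the reference. Slc2a4, the insulin-responsive glucose transporter GLUT4, was between 5.93 and 6. The transcription factors of fat differentiation were also high. Cebpa ranged from 5.46 through 5.84 to 6, with a mean of 5.75 ± 0.25 (SD, n = 7; adjusted p = 6.36e-09). Pparg ranged from 3.63 through 4.20 to 4.52, a mean of 4.16 ± 0.30 (n = 7) or 17.9-fold (adjusted p = 1.09e-07), and its 10 probes agreed within 4.01 to 4.46. Retn, which encodes the adipokine resistin, ranged from 4.37 through 4.81 to 4.93 (mean 4.73 ± 0.19, n = 7, adjusted p = 7.05e-09).

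Among adipokines, leptin was the uneven one. Lep ranged from 2.12 through 3.25 to 5.82, with a mean of 3.61 ± 1.24 (SD, n = 7; adjusted p = 0.000313). All 7 arrays were above the reference, WT 60 was the lowest and WT 56 the highest. Its 10 probes had means between 2.72 and 4.69 and repeated values on 6 arrays. The spread of 1.24 compares with 0.19 for Retn over the same 7 glands.

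Genes of thermogenic fat were high as well. Of 10 listed, 5 were measured and 4 passed as higher, all 4 also at 2-fold. Ucp1, the uncoupling protein that turns respiration into heat, was at 6 on all 7 arrays, as were Cidea, a droplet protein of brown fat, and Cox8b, a cytochrome oxidase subunit of brown fat and muscle. Cox7a1, another such subunit, ranged from 2.31 through 3.35 to 4.44. Its mean of 3.48 ± 0.80 (SD, n = 7) is 11.2-fold (adjusted p = 4.28e-05), and no array was near the reference. The coactivator Ppargc1a did not pass, with values from -0.57 through -0.03 to 1.79 (mean 0.57 ± 1.01, n = 7, adjusted p = 0.23), and 4 of its 7 values were repeated ones. The values near 1.5 and above came from WT 55, WT 56 and WT 60. Because the values stop at 6, differences between glands in Ucp1 cannot be seen.

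Enzymes that make fatty acids and triglycerides were high with 1 exception. Of 18 measured members of the lipid synthesis list, 15 were higher and 1 lower, with a median of 3.75. Fasn, fatty acid synthase, ranged from 4.08 through 4.37 to 5.00, a mean of 4.49 ± 0.31 (SD, n = 7) or 22.4-fold (adjusted p = 9.17e-08). Acaca, which makes the malonyl-CoA it uses, was 4.10 ± 0.37 (n = 7; adjusted p = 3.4e-07), and Dgat2, which completes triglycerides, was 5.84 ± 0.16 (n = 7; adjusted p = 9.74e-10). Pck1, which supplies glycerol phosphate in fat, was at 6 on all 7 arrays. The stearoyl-CoA desaturases went apart. Scd1, the form of adipose tissue and liver, ranged from 5.61 through 5.75 to 6 (mean 5.80 ± 0.16, n = 7, adjusted p = 1e-09). Scd2 ranged from -2.75 through -1.76 to -0.74 (mean -1.85 ± 0.79, n = 7, adjusted p = 0.000999), below the reference on all 7 arrays.

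Genes of mitochondrial energy metabolism were mostly above the reference and those of glycolysis mostly below it. Of 17 measured genes of fatty acid oxidation 15 were higher and none lower, with a median of 2.61. Of 24 genes of oxidative phosphorylation 23 were higher and none lower (median 1.02); on WT 55, WT 56, WT 59 and WT 60 alone, an inferred run of arrays described further on, 11 were higher at a median of 1.06. Of 16 genes of the TCA cycle 12 were higher and none lower (median 1.17). Of 14 genes of glycolysis 3 were higher and 9 lower (median -1.25). The size differed between these lists: 11 of the fatty acid oxidation genes passed at 2-fold, against 5 of the TCA cycle and 1 of oxidative phosphorylation.

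In fatty acid oxidation, Acadm, the medium-chain dehydrogenase, ranged from 2.43 through 3.20 to 4.29, a mean of 3.33 ± 0.58 (SD, n = 7) or 10-fold (adjusted p = 1.09e-05). Its very-long-chain counterpart Acadvl was 2.61 ± 0.41 (n = 7) and the long-chain Acadl 2.48 ± 0.73 (n = 7; adjusted p = 7.31e-06 and 0.00015). Decr1, which handles unsaturated chains, was the highest of the list at 4.61 ± 0.63 (n = 7; adjusted p = 2.81e-06). Hadh, the next step for short chains, was 3.55 ± 0.33 (n = 7; adjusted p = 4.94e-07). In the TCA cycle list, Pcx, pyruvate carboxylase, which refills the cycle, stood out at 4.97 ± 0.26 (n = 7), or 31.3-fold (adjusted p = 1.86e-08). The cycle enzymes themselves were nearer the reference: citrate synthase Cs ranged from 0.70 through 1.29 to 2.06 (mean 1.35 ± 0.45, n = 7, adjusted p = 0.000332). Idh3a was 1.89 ± 0.49 (n = 7; adjusted p = 8.82e-05).

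Subunits of the respiratory chain moved together by a small amount. Sdha, of complex II, ranged from 1.25 through 1.50 to 2.68 (mean 1.81 ± 0.58, n = 7, adjusted p = 0.000235). Ndufa1, of complex I, was 1.09 ± 0.43 (n = 7; adjusted p = 0.00083). Ndufb8 and Cox5a, of complexes I and IV, were 0.63 ± 0.44 and 0.67 ± 0.51 (n = 7 each; adjusted p = 0.013 and 0.0171), each below 0 on 1 array. Uqcrc1 was the 1 subunit that did not pass (0.37 ± 0.56, n = 7, adjusted p = 0.167); without WT 59 it passed (0.55, adjusted p = 0.0177).

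The glycolysis genes that were lower include Slc2a1, Pkm and Gapdh. Slc2a1, the glucose transporter GLUT1 of proliferating cells, ranged from -4.63 through -3.60 to -3.24, a mean of -3.64 ± 0.46 (SD, n = 7; adjusted p = 2.16e-06), opposite in sign to Slc2a4. Pkm, pyruvate kinase, was -2.03 ± 0.32 (n = 7; adjusted p = 8.98e-06). Ldha, lactate dehydrogenase A, which is in the list of Myc-linked metabolism and not in this one, was -1.05 ± 0.32 (n = 7, adjusted p = 0.000272). Gapdh was -1.51 ± 0.21 (n = 7; adjusted p = 7.76e-06), with 7 probes whose means ran from -3.10 to -0.22. The genes that were higher are Pdk4, Hk2 and Aldoa. Pdk4, the kinase that switches off pyruvate dehydrogenase, ranged from 4.77 to 6 with a median of 6 (mean 5.61 ± 0.58, n = 7, adjusted p = 5.92e-07). Hk2, the hexokinase of muscle and fat, was 1.20 ± 0.84 (n = 7; adjusted p = 0.0113).

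The ductal epithelium was seen through some markers and not through others. Of 15 measured luminal genes 11 were higher, 7 of them at 2-fold, and 1 was lower, with a median of 2.34. The genes with high ratios encode tight junction proteins and transcription factors. Cldn3, a claudin of epithelial tight junctions, ranged from 5.28 to 6 with a median of 6 (mean 5.80 ± 0.29, SD, n = 7, adjusted p = 1.29e-08). Foxa1, which opens chromatin for the oestrogen receptor, ranged from 3.62 through 4.34 to 5.43 (mean 4.47 ± 0.65, n = 7, adjusted p = 3.81e-06). Wfdc18, a small secreted protein of ducts, was 4.48 ± 0.49 (n = 7; adjusted p = 9.19e-07), Kit 5.49 ± 0.71 (n = 6; adjusted p = 9.9e-06) and the Ets factor Ehf 5.13 ± 0.89 (n = 5; adjusted p = 0.000132). Esr1, the oestrogen receptor of the hormone-sensing luminal cells, ranged from -0.01 through 2.82 to 4.49 (mean 2.60 ± 1.48, n = 7, adjusted p = 0.00401). WT 55 was the array at -0.01, and repeated values occurred on all 7. Cdh1, E-cadherin, was 3.99 ± 1.61 (n = 7; adjusted p = 0.000695).

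The simple keratins did not share a call: Krt19 passed as higher, Krt8 as lower and Krt18 did not pass. Krt18 ranged from -0.48 through 0.46 to 1.19 and did not pass (mean 0.53 ± 0.54, SD, n = 7, adjusted p = 0.055), although it passed without WT 56 (0.69, adjusted p = 0.00621), with median centring (adjusted p = 0.0454), quantile normalization (0.0446) and some other settings. Its partner Krt8 ranged from -2.60 through -0.73 to -0.13 and was below 0 on all 7 arrays (mean -1.27 ± 1.05, n = 7, adjusted p = 0.0227). That call ended without WT 59 (-1.05, adjusted p = 0.0524), WT 56 (-1.08, 0.0562) or WT 55 (-1.13, 0.0564), and with 1 probe per gene (-0.36, adjusted p = 0.364), its 2 probes having means of -2.18 and -0.36. Krt19 ranged from -0.17 through 1.53 to 2.25 (mean 1.15 ± 0.95, n = 7, adjusted p = 0.0225), and lost the call without WT 60, WT 53, WT 54 or WT 57 (0.97 to 1.09, adjusted p between 0.0566 and 0.0668). Epcam did not pass (0.41 ± 0.69, n = 7, adjusted p = 0.204). Without WT 55 the luminal median was 1.94.

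Basal markers were uneven too. Of 12 measured genes 4 were higher, all at 2-fold, none was lower, and the median was 0.48 (0.30 without WT 60, where 1 was lower). Oxtr, the oxytocin receptor that contracts these cells at milk let-down, ranged from 3.76 through 4.74 to 5.67, a mean of 4.69 ± 0.67 (SD, n = 7) or 25.9-fold (adjusted p = 3.4e-06). The basal keratins Krt5 and Krt17 were 4.16 ± 0.66 and 4.35 ± 1.31 (n = 5 each; adjusted p = 0.000103 and 0.00116), with no value on WT 55 or WT 56. Krt14 was at about 0 on WT 54, WT 55 and WT 56 with repeated values and reached 3.52 on WT 57. Its mean of 1.29 ± 1.45 (n = 7) did not pass (adjusted p = 0.0693), but did with repeated values set to missing (2.26, adjusted p = 0.00722) and in the fit over 30 arrays (1.29, adjusted p = 0.0115). The contractile actin Acta2 (0.05 ± 0.48, n = 7, adjusted p = 0.84) and the basal regulator Trp63 (0.25 ± 0.23, n = 7, adjusted p = 0.0626) did not pass; Trp63 passed without WT 55 (0.31, adjusted p = 0.024).

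Some milk genes were far above the reference and others at it. Of 8 measured members 6 were higher, 5 at 2-fold, with a median of 1.77. Csn3, kappa-casein, ranged from 4.47 through 5.75 to 6 (mean 5.43 ± 0.62, SD, n = 7, adjusted p = 1.07e-06). Glycam1, a mucin of milk that lymph node vessels also make, lay between 5.95 and 6 (n = 6), and Ltf, lactoferrin, between 5.77 and 6 (n = 6). Btn1a1, butyrophilin of the milk fat globule, ranged from 1.50 through 1.82 to 2.16, a mean of 1.84 ± 0.24 (n = 7) or 3.59-fold (adjusted p = 4.65e-06). Lalba, alpha-lactalbumin, which makes lactose, lay between -0.03 and 0.24 (mean 0.07 ± 0.12, n = 4, adjusted p = 0.6), with repeated values on all 4 arrays. With the oncogene the same probe reached 5.93 ± 0.17 (Her2/Neu+, n = 6) and 6 (Her2/Neu+/IFNAR1-/-, n = 7).

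Connective tissue was described by a fibroblast list, which also holds genes of matrix proteins, and by a collagen and matrix list. Of 17 measured fibroblast genes 11 were higher, all 11 at 2-fold, and 1 was lower (median 3.44). Of 15 collagen and matrix genes 6 were higher and 6 lower (median -0.04, between -0.09 and 0.12 without 1 array, and above 0 without WT 55 or WT 56). The inferred runs gave 2 higher in the first alone and 3 lower in the second alone. Lum, the proteoglycan lumican, was at 6 on all 7 arrays. Dcn, decorin, ranged from 2.94 through 3.52 to 3.73, a mean of 3.46 ± 0.28 (SD, n = 7) or 11-fold (adjusted p = 2.68e-07). Pi16 and Dpt, genes of adventitial fibroblasts, were 5.23 ± 0.44 and 3.73 ± 1.07 (n = 7 each; adjusted p = 2.18e-07 and 0.000124). Clec3b was 5.31 ± 0.65 (n = 7; adjusted p = 1.52e-06). The general fibroblast receptor Pdgfra did not pass (0.29 ± 0.28, n = 7, adjusted p = 0.0564), but passed without WT 60 or WT 55 and with median centring (0.33, adjusted p = 0.0377). The chemokine Cxcl12 was the lower one (-1.33 ± 0.41, n = 7, adjusted p = 0.000227).

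Col1a1, the main fibrillar collagen, ranged from -1.03 through 0.38 to 0.58 and did not differ from the reference (mean -0.04 ± 0.71, n = 7, adjusted p = 0.902). WT 55 and WT 56 were near -1. Col3a1 was higher, from 0.97 through 2.67 to 3.13 (mean 2.33 ± 0.77, n = 7, adjusted p = 0.000266), and so was Postn, periostin (5.32 ± 0.63, n = 7, adjusted p = 1.28e-06). Several proteins of the pericellular matrix and its enzymes were lower. Thbs1, thrombospondin 1, ranged from -4.38 through -2.92 to -0.52 (mean -2.66 ± 1.25, n = 7, adjusted p = 0.00155). Fn1, fibronectin, was -1.77 ± 0.84 (n = 7; adjusted p = 0.00171), the collagen cross-linking enzyme Lox -2.05 ± 0.80 (n = 7; adjusted p = 0.000644), and Bgn, biglycan, -1.85 ± 0.86 (n = 7; adjusted p = 0.00146).

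Basement membrane genes were higher in 10 of 13 cases and lower in 1 (median 1.01). The collagen IV chains Col4a1 and Col4a2 were 1.73 ± 0.44 and 1.45 ± 0.27 (SD, n = 7 each; adjusted p = 7.96e-05 and 2.6e-05). The laminin alpha chains separated: Lama2 and Lama4, of adipocytes, muscle and vessels, were 4.45 ± 0.65 and 5.56 ± 0.78 (n = 7 each; adjusted p = 3.82e-06 and 3.18e-06), while Lama5, of epithelial basement membranes, was -0.74 ± 0.51 (n = 7; adjusted p = 0.012). Vessels were marked throughout: 12 of 13 endothelial genes were higher, 10 at 2-fold, with a median of 4.50. Gpihbp1, which carries lipoprotein lipase to the capillary wall, lay between 5.80 and 6. Cldn5, a claudin of endothelial junctions, was 5.79 ± 0.37 (n = 7; adjusted p = 4.21e-08) and Esam, an adhesion molecule there, 5.89 ± 0.18 (n = 7; adjusted p = 1.52e-09). Cdh5, VE-cadherin, was at 6 on 5 arrays, 4.17 on WT 54 and 2.62 on WT 53. The VEGF receptors differed in size, with Kdr at 5.54 ± 0.13 (n = 7), over 11 probes whose means ran from 1.78 to 6, and Flt1 at 1.37 ± 0.84 (n = 7; adjusted p = 0.00596).

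Nerve was represented by 5 of 6 measured Schwann cell genes that were higher (median 2.29), a number that fell to 3 without WT 60. S100b, a calcium-binding protein of glia and of adipocytes, ranged from 1.16 through 5.64 to 6 (mean 4.91 ± 1.74, SD, n = 7, adjusted p = 0.000353). Mbp, myelin basic protein, was 1.78 ± 0.46 (n = 7; adjusted p = 9.08e-05). Blood was present too: Hba-a1 and Hbb-b1, the adult globins, were 5.05 ± 0.28 and 4.99 ± 0.15 (n = 7 each; adjusted p = 2.63e-08 and 2.06e-09), the only 2 measured of 7 listed erythroid genes.

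Immune cells fell into those above and those at or below the reference. T and NK cell genes were higher in 7 of 10 cases (median 1.52; 4 cases in the first inferred run alone), macrophage genes in 9 of 12, with 1 lower (median 2.91), MHC class II genes in 5 of 7 (median 3.40) and complement genes in 6 of 6 (median 4.21). B cell genes were higher in 1 of 4 cases (median 0.28, 0.07 without WT 60 and 0.43 without WT 56), and plasma cell genes were higher in none of 7 and lower in 5 (median -1.23). All 3 measured genes of lymph node stroma were higher (median 4.47). The number was 2 without WT 54, WT 57, WT 59 or WT 60, in either inferred run alone and with 1 probe per gene. Cr2, the complement receptor of follicular dendritic cells and B cells, was at 6 on the 6 arrays with a value. Ccl21a, the chemokine that guides cells into lymph nodes, ranged from 4.23 through 4.47 to 4.82, a mean of 4.47 ± 0.21 (SD, n = 7) or 22.2-fold (adjusted p = 1.47e-08).

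The T cell receptor chains were all above the reference. Cd3d was 4.70 ± 0.56 (n = 6; adjusted p = 6.91e-06), Cd3g 1.63 ± 0.88 (n = 7; adjusted p = 0.00322) and Cd3e 0.97 ± 0.73 (n = 7; adjusted p = 0.0158). B cell genes had the widest range between arrays of the 40 lists (list means from -1.65 to 2.43). Over the 3 members with a value on all 7 arrays the means ran from -1.65 to 1.68. Cd79b, part of the B cell receptor, ranged from -3.72 on WT 56 through 0.00 to 1.93 on WT 60 (mean -0.27 ± 1.84, n = 7, adjusted p = 0.747). Ms4a1, which encodes CD20, ranged from -1.62 through -0.35 to 1.59 and did not pass (adjusted p = 0.965). Spib, a B lymphoid Ets factor, ranged from -0.01 through 3.66 to 5.81 and passed (mean 3.38 ± 2.02, n = 6, adjusted p = 0.00914). Of the antibody-secreting cell genes, Mzb1 and Jchain were below 0 on every array. Mzb1 ranged from -5.39 through -3.75 to -2.47 (mean -3.79 ± 0.98, n = 7, adjusted p = 7.46e-05) and Jchain, the joining chain of IgA and IgM, from -1.77 through -1.66 to -0.99 (mean -1.55 ± 0.28, n = 7, adjusted p = 1.99e-05). Pou2af1 was -2.58 ± 0.99 (n = 7; adjusted p = 0.000564).

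Lectins and complement led the macrophage genes. Clec10a, a lectin of resident macrophages and dendritic cells, was at 6 on all 7 arrays, and C1qc, of the first complement component, ranged from 4.07 through 4.61 to 4.86 (mean 4.52 ± 0.30, SD, n = 7, adjusted p = 6.88e-08). Mrc1, the mannose receptor, was 4.99 ± 1.75 (n = 7; adjusted p = 0.00034). Cd14, the endotoxin co-receptor, was the lower one (-1.90 ± 0.71, n = 7, adjusted p = 0.000497), and Adgre1, which encodes F4/80, did not pass (0.09 ± 0.48, n = 7, adjusted p = 0.684). Csf1r, the growth factor receptor of macrophages, was 0.89 ± 0.71 (n = 7; adjusted p = 0.0201). That call ended without WT 60 (0.87, adjusted p = 0.0578), WT 55 (0.82, 0.0508) or WT 53 (0.88, 0.0501). H2-Aa was at 6 on all 7 arrays, H2-Ab1 was 3.89 ± 0.36 (n = 7; adjusted p = 4.02e-07) and Cd74, the invariant chain of the same class II complexes, 2.20 ± 0.75 (n = 7; adjusted p = 0.00032). Of 4 neutrophil and mast cell genes 2 were higher (median 1.20). These were mast cell proteases, Mcpt4 at 4.57 ± 0.54 (n = 7; adjusted p = 1.31e-06) and Tpsb2, while the neutrophil genes S100a8 and Elane did not pass. Among complement genes, C4b was 4.71 ± 0.33, Cfb 4.96 ± 0.55 and the inhibitor Serping1 5.87 ± 0.21 (n = 7 each; adjusted p = 9.37e-08, 9.23e-07 and 2.74e-09).

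Interferon-stimulated genes went both ways in WT glands. Of 24 measured genes 4 were higher and 8 lower, 2 and 2 of them at 2-fold, with a median of -0.15. In the second inferred run alone 3 were lower, and the median was -0.04 without WT 60, -0.24 without WT 55 and -0.24 without WT 53. The antiviral oligoadenylate synthetase family was low. Oasl1 ranged from -4.60 through -3.06 to -2.49, a mean of -3.33 ± 0.83 (SD, n = 7; adjusted p = 6.16e-05). Oas1a was -1.78 ± 0.63 and Oasl2 -1.63 ± 0.61 (n = 7 each; adjusted p = 0.00039 and 0.000525). Isg15, a ubiquitin-like modifier, was -0.82 ± 0.50 (n = 7; adjusted p = 0.00683). It lost the call in the fit over 30 arrays (adjusted p = 0.159) and stood at 0.01 with 1 probe per gene (adjusted p = 0.973). Ifit1 and the transcription factor Irf7 did not pass (-0.20 ± 0.35, n = 6, and -0.50 ± 0.74, n = 7; adjusted p = 0.286 and 0.155) and all of their values involved repeated ones. The genes that were higher include Parp14, a mono-ADP-ribosyltransferase (1.97 ± 0.38, n = 7, adjusted p = 2.35e-05), and Xaf1 (2.71 ± 0.58, n = 7, adjusted p = 3.01e-05), whose 2 probes had means of 0.36 and 5.05.

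Genes of cell division were mostly below the reference and none passed as higher. All 18 measured mitosis genes were lower, 15 of them at 2-fold, and of 27 DNA replication genes 23 were lower, 19 at 2-fold, and 4 did not pass. Promoters of such genes are known for CCAAT boxes and for the cell cycle homology region, a short element close to the start. The 250 bases before the start of 3 mitosis genes and of Plin1 are printed from the RefSeq promoter table (GRCm38.p6) to show these elements beside a gene of the opposite direction. Capitals mark CCAAT or TTTGAA or TTCGAA on either strand (ATTGG and TTCAAA are the same letters on the other strand; TTCGAA reads the same on both). These 4 were chosen after the motifs had been seen.

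The windows are Cdk1 at chr10:69352913-69353162 on the minus strand, Ube2c at chr2:164769679-164769928 on the plus strand, Top2a at chr11:99024190-99024439 on the minus strand and Plin1 at chr7:79732777-79733026 on the minus strand.
Cdk1: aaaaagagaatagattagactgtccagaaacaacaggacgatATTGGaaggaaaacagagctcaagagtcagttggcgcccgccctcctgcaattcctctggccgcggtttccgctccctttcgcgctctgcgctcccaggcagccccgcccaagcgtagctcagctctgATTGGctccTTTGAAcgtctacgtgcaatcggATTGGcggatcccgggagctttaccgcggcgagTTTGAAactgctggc
Ube2c: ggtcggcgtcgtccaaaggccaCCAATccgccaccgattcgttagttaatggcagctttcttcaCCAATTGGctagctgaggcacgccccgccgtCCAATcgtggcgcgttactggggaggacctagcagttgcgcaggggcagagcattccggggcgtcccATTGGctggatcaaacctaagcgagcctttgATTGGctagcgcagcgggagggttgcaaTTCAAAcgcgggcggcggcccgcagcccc
Top2a: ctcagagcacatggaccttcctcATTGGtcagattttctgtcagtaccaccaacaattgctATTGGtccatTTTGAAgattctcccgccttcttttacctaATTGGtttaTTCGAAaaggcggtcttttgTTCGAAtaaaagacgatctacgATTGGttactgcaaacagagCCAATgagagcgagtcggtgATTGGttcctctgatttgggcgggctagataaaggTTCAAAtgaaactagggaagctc
Plin1: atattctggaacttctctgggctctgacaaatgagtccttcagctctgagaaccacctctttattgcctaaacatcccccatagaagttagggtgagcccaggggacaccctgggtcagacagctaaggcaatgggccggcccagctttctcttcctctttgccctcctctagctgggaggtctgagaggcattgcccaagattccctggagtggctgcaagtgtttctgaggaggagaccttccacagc

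Cdk1, the kinase that starts mitosis, has CCAAT at 208, 80 and 48 bases before the start and TTTGAA at 71 and 15. Ube2c, the conjugating enzyme of the anaphase-promoting complex, has 6 CCAAT matches and a TTTGAA at 29 bases before the start. The window of Top2a, topoisomerase II alpha, has its nearest TTTGAA at 23 bases before the start. The window of Plin1 holds none of these letters. Over windows of 300 bases (250 before and 50 after the start), CCAAT was found in 13 of 15 mitosis genes, beside 37.4% of all 32851 windows in the table. TTTGAA or TTCGAA was found in 12 of 15, beside 19.2%, and both in 12 of 15, beside 7.52%. In 26 windows of DNA replication genes both were found in 19.2%, and in 21 windows of white adipocyte genes in 9.52%. CCAAT by itself was not particular to the mitosis genes. It was in 12 of 16 windows of circadian clock genes, in 57.7% of the DNA replication windows and in 28.6% of the white adipocyte windows. CACGTG, the E-box, was in none of the mitosis windows and in 4 of 16 windows of circadian clock genes, beside 7.15% of all. A match describes these letters only.

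Cdk1 ranged from -5.29 through -3.63 to -2.31, a mean of -3.68 ± 0.94 (SD, n = 7), or 12.8-fold below the reference (adjusted p = 7e-05). Ube2c ranged from -4.51 through -3.95 to -3.44 (mean -3.85 ± 0.40, n = 7, adjusted p = 7.58e-07) and Top2a from -4.66 through -3.66 to -2.20 (mean -3.51 ± 0.84, n = 7, adjusted p = 5.02e-05). Cenpe, the kinetochore motor, was the lowest of the list at -4.63 ± 0.60 (n = 7), or 24.7-fold below (adjusted p = 2.12e-06). Mki67, the proliferation antigen Ki-67, ranged from -5.99 through -3.33 to -1.90 (mean -3.81 ± 1.52, n = 7, adjusted p = 0.000657). No gland reached the reference for any of these 5 genes. Among replication genes, Mcm2 of the helicase was -2.94 ± 0.56, Pcna, the sliding clamp, -2.07 ± 0.41, and Prim1, the primase, -4.20 ± 0.97 (n = 7 each; adjusted p = 1.77e-05, 2.32e-05 and 4.25e-05). The median of the replication list was -1.84 without WT 56.

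The genes that build ribosomes were lower by less. Of 22 ribosome biogenesis genes 17 were lower and none higher, 2 of them at 2-fold, with a median of -0.92, and 10 were lower in either inferred run alone. Npm1, nucleophosmin, was -1.99 ± 0.33 (SD, n = 7; adjusted p = 1.07e-05), with 5 probes between -3.20 and -0.97, and Nop58, of the snoRNA complex, was -2.10 ± 0.62 (n = 7; adjusted p = 0.000152). Of 16 genes of Myc-linked metabolism 13 were lower and none higher (median -1.16). Myc itself ranged from -3.36 through -2.14 to -0.03 (mean -1.94 ± 1.14, n = 7, adjusted p = 0.00472). Shmt2, the mitochondrial serine hydroxymethyltransferase, ranged from -4.27 through -2.56 to -2.29 (n = 7; adjusted p = 6.73e-05). Of 66 ribosomal protein genes 36 were lower and 11 higher, none of them at 2-fold, with a median of -0.45. Rpl3 at -1.15 ± 0.39 and Rps14 at 1.12 ± 0.27 show both directions (n = 7 each; adjusted p = 0.000375 and 8.97e-05). Ribosomal protein genes have many near-identical pseudogenes, so single probes may read more than 1 transcript.

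**Figure D3:**
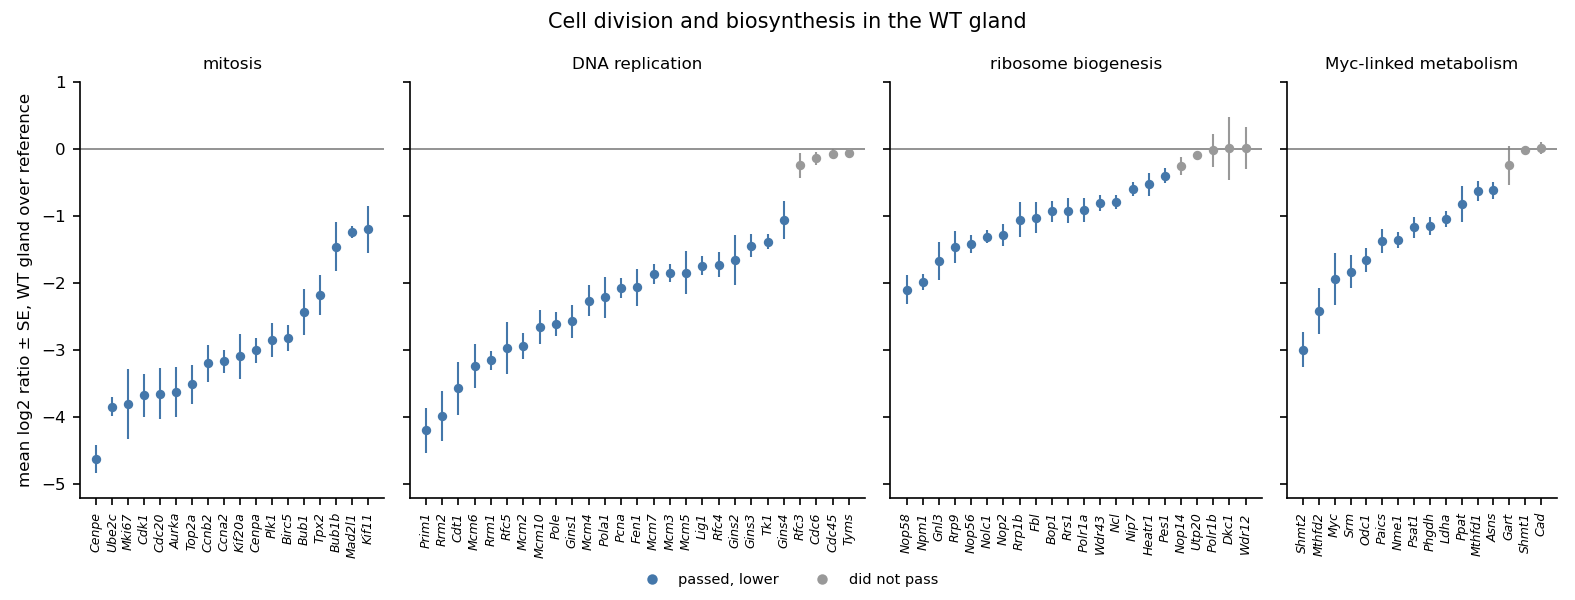
The y axis is the mean log2 ratio of WT gland over reference with the SE of the fit, and each point is a gene of the list named above the panel. Blue genes passed as lower, grey did not pass, and no gene passed as higher. All 18 mitosis genes lie below -1, and the 22 ribosome biogenesis genes lie closer to 0.

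Regulators that respond to hormones and stress went both ways. Of 12 glucocorticoid targets 4 were higher and 5 lower (median -0.26, -0.09 without WT 54 and -0.43 without WT 55). Tsc22d3, which encodes GILZ, was 2.50 ± 0.50 (SD, n = 7; adjusted p = 2.26e-05), Zbtb16, the zinc finger factor PLZF, ranged from 3.60 through 5.20 to 5.90 (mean 5.06 ± 0.72, n = 7, adjusted p = 3.3e-06), and Klf9 was 2.06 ± 0.56 (n = 7; adjusted p = 0.000111). Lcn2, lipocalin 2, was 1.43 ± 0.52 (n = 7; adjusted p = 0.000509). The metallothionein Mt2, which glucocorticoids and metals induce, was -2.29 ± 0.67 (n = 7; adjusted p = 0.000147), and the chaperone Fkbp5 did not pass (0.28 ± 1.08, n = 7, adjusted p = 0.563). Of 14 immediate early genes 2 were higher and 6 lower (median -0.92, and -0.71 without WT 60); without WT 55 only 1 was higher. Fos ranged from -4.71 through -3.22 to -2.06, a mean of -3.32 ± 0.82 (n = 7; adjusted p = 5.84e-05), with repeated values on 4 arrays, and Egr1 was -2.45 ± 1.09 (n = 7; adjusted p = 0.00118). Klf2, an endothelial and lymphocyte factor, was higher (2.81 ± 0.50, n = 7, adjusted p = 1.2e-05).

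Of 12 clock genes 4 were higher and 1 lower (median 0.41, 0.19 without WT 59). The output regulator Hlf ranged from -0.01 through 2.98 to 4.15 (mean 2.67 ± 1.30, n = 7, adjusted p = 0.00182), with WT 55 alone at the reference, and Per1 was 0.69 ± 0.34 (n = 7; adjusted p = 0.00279). Dbp did not pass (-0.39 ± 0.61, n = 7, adjusted p = 0.187), but passed without WT 60 (-0.57, adjusted p = 0.0328). Of 15 detoxification genes 11 were higher and none lower, 8 at 2-fold (median 2.15). Ces1d, a carboxylesterase of fat and liver, was at 6 on all 7 arrays, the monooxygenase Fmo1 lay between 5.73 and 6, and Cyp2e1 was 5.64 ± 0.23 (n = 7; adjusted p = 4.83e-09). Catalase, Cat, was 2.81 ± 0.55 (n = 7; adjusted p = 1.9e-05).

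Of 11 imprinted and fetal genes 4 were higher and 3 lower (median -0.10). The lower ones were Dlk1, Hmga2 and H19. Dlk1, a surface protein of preadipocytes and embryonic tissue, was -4.18 ± 0.50 (SD, n = 7, adjusted p = 1.52e-06), with 2 probes at -5.65 and -2.71. Hmga2 was -4.17 ± 0.66 and H19 -1.56 ± 0.34 (n = 7 each; adjusted p = 6.03e-06 and 4.59e-05). Cdkn1c, an imprinted inhibitor of the cell cycle, was 4.23 ± 0.87 (n = 7; adjusted p = 2.37e-05). Meg3, from the same imprinted cluster as Dlk1 but expressed from the other parental copy, ranged from -0.01 through 3.30 to 5.95 (mean 3.48 ± 2.00, n = 7, adjusted p = 0.00412). Of 5 genes of liver-secreted proteins 4 were higher (median 4.95), among them haptoglobin, Hp, which fat also makes (5.24 ± 0.24, n = 7, adjusted p = 9.41e-09), Serpina1a (4.95 ± 1.15, n = 7, adjusted p = 4.18e-05) and Fgb (5.66 ± 0.76, n = 5, adjusted p = 5.16e-05). Afp did not pass. Of 15 listed pluripotency and germline genes only 4 were measured, and 3 were higher (median 1.90): Nanog, Tdgf1 and the meiotic Sycp3 (4.12 ± 1.23, n = 6, adjusted p = 0.000401). The number higher was 2 without WT 56, WT 59 or WT 60. None of 5 myoblast genes passed in either direction (median -0.06), and all 5 had repeated values on 4 or more arrays.

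Over all genes, 30 were at 6 on all 7 arrays. Besides those described, they are Aoc3, an amine oxidase of adipocytes and vessels, Mrap, which brings melanocortin receptors to the cell surface, Pnpla3, a lipase relative of fat and liver, Orm2, an acute-phase plasma protein, Maob, a monoamine oxidase, the copper-containing iron oxidase Heph, and Aspa, Itih5, Rbp7, Art3, Palmd, Plbd1, Sparcl1, Tspan1, Tspan12 and Cd200. At the other end, Msln, mesothelin, ranged from -6 through -6 to -4.71, a mean of -5.71 ± 0.52 (SD, n = 7; adjusted p = 3.18e-07), and was the lowest of all genes called. Chil3, a chitinase-like protein of activated macrophages, ranged from -6 through -4.87 to -4.21 (mean -5.00 ± 0.58, n = 7), and Gpnmb, a glycoprotein of lipid-laden macrophages and melanocytes, was -4.76 ± 0.81 (n = 7; adjusted p = 1.22e-06 and 8.74e-06). The X-linked homeobox gene Rhox5, known from reproductive tissue and tumour lines, was -4.99 ± 0.90 (n = 7; adjusted p = 1.14e-05). Saa3, serum amyloid A3, was -4.19 ± 1.05 (n = 7; adjusted p = 6.09e-05). The remaining genes among the 15 lowest are Cenpe, Prim1, Dlk1, Steap1, Prkg2, Syt13, Mycl, Sapcd2 and the pseudogenes Ccnb1-ps and Rpl26-ps2, whose probes cannot be told apart here from their parent genes.

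The glands also differed among themselves. The means over members with a value on all 7 arrays were compared by array, as a description. WT 55 and WT 56 had the highest means for fatty acid oxidation (3.24 and 3.09, against 1.99 to 2.80 on the other 5 arrays), for the TCA cycle (1.92 and 1.70, against 0.63 to 1.36) and for oxidative phosphorylation (1.64 and 1.45, against 0.39 to 1.09). The same arrays had the lowest means for T and NK cells (0.60 and 0.36, against 1.62 to 2.07) and for B cells (-0.52 and -1.65, against -0.12 to 1.68). White adipocyte genes ranged only from 5.17 to 5.58, but 14 of these 20 genes had values at the limit, where differences are lost. Endothelial genes ranged from 3.91 to 4.46. WT 55 and WT 56 also had the most repeated values (8204 and 7188, against 3865 to 7065), whose part in these differences was not tested.

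**Figure D4:**
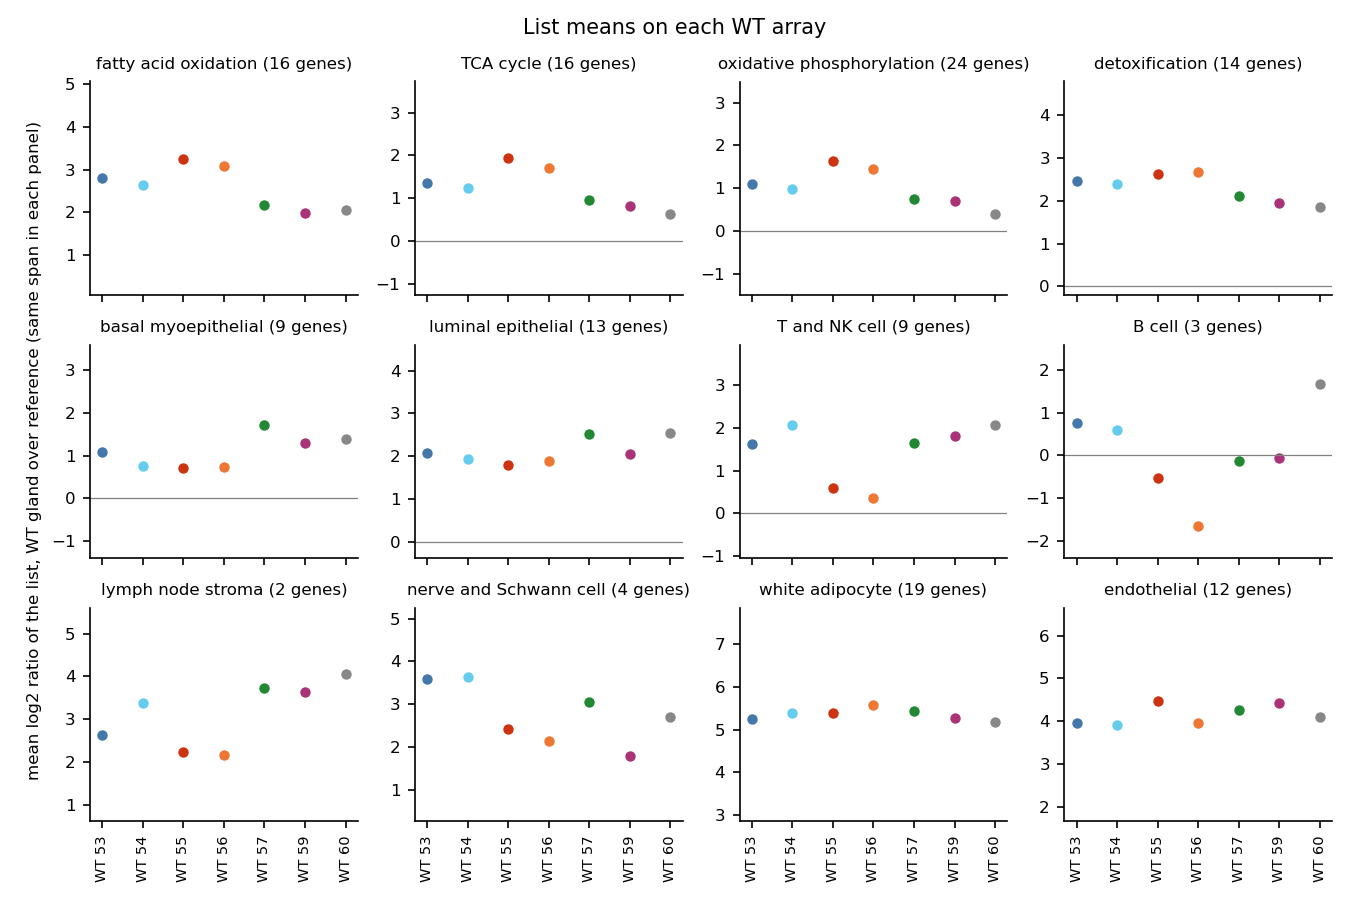
Each panel is a gene list, the x axis names the 7 WT arrays and the y axis is the mean log2 ratio of gland over reference over members with a value on all 7 arrays; every panel spans the same number of log2 units. WT 55 and WT 56 lie at the top for fatty acid oxidation (3.24 and 3.09) and at the bottom for B cells (-0.52 and -1.65), while white adipocyte genes stay between 5.17 and 5.58.

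Among genes with a value on all 7 arrays, those with the largest spread were mostly at 0 on some arrays and high on the others. Epb41l4b ranged from -0.01 through 4.52 to 6 (mean 3.62 ± 2.62, SD, n = 7, adjusted p = 0.0121), Adamts15 from -0.01 through 4.48 to 6 (3.59 ± 2.55, n = 7, adjusted p = 0.0111) and Cd1d2 from -0.01 through 4.15 to 6 (3.53 ± 2.35, n = 7, adjusted p = 0.00836). Ccm2l, an endothelial gene, ranged from 0.73 to 6 with a median of 6 (4.46 ± 2.39, n = 7, adjusted p = 0.0029). The others among the 10 most variable are Cblc, Dusp28, Mfsd2a, Grap, Stx2 and Armt1.

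The block numbers in the labels start again after 4 of the WT arrays, which gives an inferred first run (WT 55, WT 56, WT 59 and WT 60) and a second (WT 53, WT 54 and WT 57). Fitted alone, the first called 3470 genes and the second 3840. Of the genes described here, 17 lost the call in the first run alone (adjusted p between 0.0505 and 0.288): Acta1, Adamts15, Cd1d2, Cd3e, Cd3g, Cox5a, Csf1r, Epb41l4b, Esr1, Hk2, Hlf, Krt19, Lama5, Meg3, Ndufb8, Rpl4 and Spib. In the second, 14 lost it (adjusted p between 0.0506 and 0.171): Acta1, Bgn, Ccm2l, Cd1d2, Cd3g, Cdh1, Csf1r, Egr1, Flt1, Isg15, Krt8, Myc, Oasl2 and Per1. Each fit has fewer arrays. Among the lists, ribosomal protein genes that passed as higher numbered 6 and 4 in the runs, beside 11, and in the first run alone 3 nerve genes (beside 5), 1 glycolysis gene (beside 3) and 2 imprinted and fetal genes (beside 4) passed as higher. In the second alone 2 clock genes passed as higher (beside 4) and 1 muscle gene as lower (beside 3). With the run as a random block, whose correlation was estimated from these 2 runs at -0.11, 6287 genes passed and none of the genes described lost the call. Krt18, Krt14, Trp63 and Pdgfra gained it (adjusted p between 0.0297 and 0.0363). A negative correlation makes the SE of a mean smaller, so this fit cannot show whether calls hold against differences between the runs. Col1a1 turned sign between the fits, at 0.46 in the second run alone (adjusted p = 0.0219).

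Levels in the other groups were set beside those of WT glands in a fit over all 30 arrays, in which the 3 comparisons share the WT arrays. Of 11463 genes, 15 (0.131%) differed from WT in Her2/Neu+, 20 (0.174%) in Her2/Neu+/IFNAR1-/- and 3 (0.0262%) in IFNAR1-/- glands. The counts rest on single arrays: for Her2/Neu+ they ran from 3 without its sample 118 to 132 without its sample 115, and were 6 without its sample 120, 8 without its sample 119, 23 without its sample 114, and 7 to 9 without WT 54, WT 57, WT 60 or WT 56. For Her2/Neu+/IFNAR1-/- they ran from 9 without WT 56 to 40 without its sample 103, with 12 without its sample 110 and 10 or 11 without WT 53, WT 54, WT 57 or WT 59. For IFNAR1-/- the count was 5 without WT 60. Of the 8 block runs inferred over all arrays 6 hold arrays of 1 group, so run and group are largely tied. The run with WT 53, WT 54 and WT 57 also holds 1 Her2/Neu+/IFNAR1-/- array, too few to compare within it. With the run as a random block the counts were 3, 7 and 1 in the order given, and with the block number as a term 16, 25 and 3. Of 297 genes that the naming rule picked in WT glands and this fit tested, 5 differed in Her2/Neu+, 3 in Her2/Neu+/IFNAR1-/- and 0 in IFNAR1-/- glands, where 27 had an unadjusted p under 0.05. The share of all genes under that unadjusted threshold is not given here, so the 27 cannot be read as many or few.

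Lalba, near 0 in WT, was higher by 5.86 ± 0.54 (SE) in Her2/Neu+ and by 5.93 ± 0.52 in Her2/Neu+/IFNAR1-/- glands (adjusted p = 8.1e-06 and 3.9e-06). Only 4 WT arrays were measured, each with a repeated value, so the WT level of Lalba rests on repeated values alone. The antiviral genes Oas1a and Oasl2, below the reference in WT, were at 1.46 ± 1.47 and 1.67 ± 1.34 (SD, n = 6 each) in Her2/Neu+ glands, higher than WT by 3.24 ± 0.65 and 3.30 ± 0.60 (SE; adjusted p = 0.0268 and 0.013). Tsc22d3 stood at 0.63 ± 0.81 (SD, n = 6) there against 2.50 ± 0.50 (n = 7) in WT (adjusted p = 0.00466), and Fn1 at -3.70 ± 0.64 (n = 6) against -1.77 ± 0.84 (n = 7; adjusted p = 0.0402). Cox7a1, the thermogenic fat subunit, was 1.24 ± 0.83 (SD, n = 9) in Her2/Neu+/IFNAR1-/- glands against 3.48 ± 0.80 (n = 7) in WT (adjusted p = 0.0114), and Lcn2 was 3.10 ± 0.78 (n = 9) against 1.43 ± 0.52 (n = 7; adjusted p = 0.0184). With the run as a random block Oas1a, Oasl2, Fn1 and Lcn2 no longer passed (adjusted p = 0.165, 0.112, 0.112 and 0.0900), while Lalba, Tsc22d3 and Cox7a1 did (for Tsc22d3 and Cox7a1 adjusted p = 0.0333 and 0.0420).

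At the level of lists the WT gland had the highest median of the 4 groups for fatty acid oxidation (2.61, beside 2.05 in IFNAR1-/-, 1.42 in Her2/Neu+ and 1.22 in Her2/Neu+/IFNAR1-/-), for oxidative phosphorylation (1.02, beside 0.53, 0.14 and 0.21) and for the TCA cycle (1.17, beside 0.86, 0.26 and 0.52). For all of these lists the array means of WT overlapped with those of every other group. In fatty acid oxidation they were 1.92 to 3.24 in WT, 1.71 to 2.83 in IFNAR1-/-, 0.26 to 2.09 in Her2/Neu+ and 0.62 to 2.54 in Her2/Neu+/IFNAR1-/- glands. No gene of these lists passed as different from WT in any group. The white adipocyte median was 5.69 in WT and 5.60, 4.77 and 5.46 in the other groups in the same order, and the mitosis median was -3.13 beside -3.26, -2.05 and -2.50. The interferon-stimulated median was -0.15 in WT, -0.34 in IFNAR1-/-, 1.46 in Her2/Neu+ and 0.54 in Her2/Neu+/IFNAR1-/- glands. The array means of the WT and Her2/Neu+ groups overlapped for white adipocyte genes (5.01 to 5.46 and 4.36 to 5.34), for oxidative phosphorylation (0.39 to 1.64 and -1.22 to 1.14) and for mitosis (-3.41 to -2.37 and -3.09 to -0.64). For interferon-stimulated genes they overlapped as well (-0.68 to 0.34 and 0.01 to 2.58). Of 24 of these genes tested, 2 passed as higher than WT in Her2/Neu+ and 0 in Her2/Neu+/IFNAR1-/- glands. No test was made of the list medians.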

How the data were processed

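The authors deposited log2 ratios, gland over reference, of 20896 probes per array. Agilent labelling with Cy5 and Cy3 is stated per the labels' protocols. Background correction, normalization and probe filters are not given in the sources used here. A probe took the 1 gene symbol that the platform annotation gives it: 17376 probes had one (17319 of these in RefSeq) and 3520 had none, which were left out. Probes measured on 4 or more of the 7 arrays (17105) were averaged per symbol to 11992 genes, 2792 of them from several probes. For 324 of these the probe means had opposite signs and differed by more than 1. No scaling or background step was added.

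The mean of the 7 arrays was tested against 0 with limma 3.58.1 in R 4.3.3 (lmFit with an intercept alone, eBayes without a trend, 2-sided, Benjamini-Hochberg adjustment over all genes, threshold 0.05), and with treat for a difference of at least 2-fold. Other groups were compared with WT in 1 fit of 30 arrays over the 11463 genes measured on at least 50% of arrays in every group. Gene lists are described by counts and medians, with no test.

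Named genes are the 15 highest and 15 lowest means (30 tied at the limit, all named), up to 5 called members per list and direction with the smallest p, the first 3 measured of each list, and the 10 with the largest SD. Lep, Retn, Pparg, Cebpa, Slc2a4, Uqcrc1, Krt19, Esr1, Cdh1 and Acta2 were added after their values were seen. The members and lists were chosen with earlier results of these data known.

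Alternatives were other scalings (median centring, quantile), probe rules, repeated values set to missing, genes at the limit left out, robust eBayes, array weights, a fit over 30 arrays, stricter calls, each inferred block run alone and each array left out. The block number as a term and the inferred run as a random block (duplicateCorrelation) were added after the data were seen.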

Additional observations from a re-analysis of the deposited data

Results flagged for a closer look

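Of 161 list means and genes of the WT gland examined, 16 had 1 array far from the others with a value (5 for Ifit1, otherwise 6) by Dixon's criterion. Chance gives about 1 in 20. For list means, WT 56 was the array each time: complement genes were at 4.16 there, with the nearest array at 3.76, DNA replication genes at -2.46 (nearest -2.11) and myoblast genes at 0.091 (nearest -0.0067). Every measured myoblast gene had repeated values on 4 or more arrays. WT 56 also stood apart for Eno3 (-3.73, nearest -2.29), Ldha (-0.41, nearest -1.01), Rpl4 (-1.31, nearest -0.78) and Hp (5.74, nearest 5.28). WT 60 did so for Hadh (2.86, nearest 3.51), Cxcl12 (-0.49, nearest -1.28), Ifit1 (-0.90, nearest -0.17) and Zbtb16 (3.60, nearest 4.93). WT 55 did so for Slc2a1 (-4.63, nearest -3.63), Hba-a1 (4.47, nearest 5.00) and Hlf (-0.0069, nearest 2.46). Wfdc18 was lowest on WT 53 (3.45, nearest 4.27) and Parp14 on WT 57 (1.19, nearest 1.86).

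In 8 cases a gene described in the WT gland differed in another group with limma at an adjusted p under 0.05. In Her2/Neu+ minus WT these were Lalba (5.86), Oasl2 (3.30), Oas1a (3.24), Fn1 (-1.93) and Tsc22d3 (-1.87). In Her2/Neu+/IFNAR1-/- minus WT they were Lalba (5.93), Cox7a1 (-2.25) and Lcn2 (1.67). Oasl2, Oas1a, Fn1 and Lcn2 no longer passed with the inferred block run as a random block. The WT level of Lalba rests on repeated values alone.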

How the results depend on the processing

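The number of genes called lay between 4056 and 5784 under the scaling, probe, limit, weight, 30-array and adjusted p 0.01 alternatives, beside 5526. It was 1472 for a difference of at least 2-fold (955 higher, 517 lower), 3470 in the first block run alone (1806 higher, 1664 lower) and 3840 in the second (1666 lower), and between 4955 and 5400 without 1 array. Over all alternatives, 3622 of 3740 values for 182 genes kept their side of the threshold, and their direction where called. The call was lost in 88 and gained in 28. In 2 the sign turned with a call in either fit: Col1a1 at 0.46 in the second run and Isg15 at 0.012 with 1 probe per gene. A gene that passed in neither fit counted as kept even where its sign turned, as for Cd79b (means from -0.89 to 0.55). Of 719 list medians under alternatives 666 moved by less than the spread between arrays.

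The first run alone gave medians of 5.51 for white adipocyte, 2.56 for macrophage and 2.52 for germline genes. The second gave 5.88 for white adipocyte, 2.87 for fibroblast, 0.41 for collagen and matrix (a change of sign), 1.18 for basement membrane, -0.83 for plasma cell, 2.59 for macrophage, -2.72 for mitosis, -0.76 for ribosome biogenesis, 0.0091 for clock, -0.82 for glucocorticoid, -0.44 for immediate early and 1.06 for germline genes. Probes with all 7 values gave 1.41 for luminal, 2.89 for fibroblast, 2.34 for lymph node, -1.44 for skin, -1.52 for glycolysis, 1.65 for detoxification and 2.88 for liver genes. With repeated values missing the medians were 3.40 for luminal, 3.64 for milk, 4.75 for endothelial, -1.55 for plasma cell, 3.24 for macrophage, 2.52 for neutrophil and mast cell, -2.29 for muscle, -2.51 for DNA replication, -1.28 for ribosome biogenesis, -1.38 for Myc-linked, -1.52 for glycolysis, 1.72 for detoxification and 0.54 for imprinted and fetal genes (a change of sign). Without genes at the limit, which by construction drops the highest members, medians were 4.44 for white adipocyte, 2.02 for brown and beige adipocyte, 3.09 for lipid synthesis, 1.28 for luminal, 1.82 for fibroblast, 0.76 for basement membrane, 2.60 for endothelial, 2.18 for macrophage, 3.72 for complement, -1.51 for glycolysis, 1.26 for detoxification and 0.51 for liver genes. With 1 probe per gene ribosomal proteins were at -0.24, and with array weights ribosome biogenesis was at -0.82 and immediate early genes at -0.65. Apart from the dropped members and smaller runs, the cause was not tested. Without 1 array, medians ran from 1.94 to 2.53 for luminal, -2.14 to -1.84 for DNA replication and -1.01 to -0.71 for immediate early genes, 0.30 to 0.60 for basal, 0.07 to 0.43 for B cell, -0.24 to -0.04 for interferon-stimulated, 0.19 to 0.52 for clock and -0.43 to -0.09 for glucocorticoid genes. Nerve and Schwann cell genes passed as higher in 3 of 6 cases without WT 60 and in the first run alone, beside 5.

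Counts against WT were 24 (Her2/Neu+) and 32 (Her2/Neu+/IFNAR1-/-) after quantile normalization. Setting repeated values to missing gave 38 and 47, and fitting only the compared groups gave 6 for IFNAR1-/-. With the inferred run as a random block, added after the data were seen, they were 3, 7 and 1. Without 1 array they ran from 3 to 132, 9 to 40 and 3 to 5. No paired analysis was possible because the groups share no sample numbers; the block numbers they share repeat within groups, and as a term in the fit they gave 16, 25 and 3. The limit of 6, the single dye orientation, the unknown signal over background and the 7 arrays bound what these ratios can show.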
